A study of Mus musculus with 9 samples.

Results

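Ventricles expressing active PI3K, a lipid kinase, were set against ventricles expressing a dominant negative PI3K, and every mouse of both groups also overexpressed the insulin-like growth factor 1 receptor (IGF1R) from a transgene. The comparison takes 6 of the 9 arrays of the study, the 3 titled IGF1R-caPI3K and the 3 titled IGF1R-dnPI3K, and covers all 12422 probe sets that are no controls, of 12488 on the array. Each array held total RNA of both ventricles from 1 sample. The mice were female and 3 months old, and the PI3K transgenes encode active (ca) or dominant negative (dn) forms of the p110 catalytic subunit. The remaining 3 arrays, from mice with the IGF1R transgene alone, serve only as a level set beside the others. The sources used here do not name the promoter that drives each transgene or the number of founder lines. Hearts with PI3K transgenes but no IGF1R transgene, and hearts of non-transgenic littermates, were not analysed here, so no value stands against a normal heart. Each title ends in a different number, and nothing else in the labels says which samples were separate animals, so the p-values measure only the spread between these samples. "Higher" and "lower" refer throughout to active against dominant negative PI3K unless another group is named.

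PI3K adds a phosphate to a lipid of the inner cell membrane, and the product recruits the kinase Akt, through which insulin and IGF1 act on growth, protein synthesis and fuel use. Akt phosphorylates the FoxO transcription factors, which then leave the nucleus and cease to switch on genes of growth arrest, atrophy and cell death. In the heart the p110 alpha form is known for setting organ size during postnatal growth, and a dominant negative form competes with the native enzyme for its binding partners.

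Control ratios of hybridisation were close between the groups, while ratios of some cellular transcripts were not. The 3' to 5' ratio of the CreX hybridisation control was 1.80 ± 0.079 (SD, n = 3) with active and 1.81 ± 0.022 (SD, n = 3) with dominant negative PI3K (exact permutation test, two-sided, p = 0.9). Of 6 such ratios, those of Actb separated the groups (3' to 5' ratio of 1.02 ± 0.017 against 1.11 ± 0.032, exact permutation p = 0.1, which is the smallest that 3 against 3 allows; adjusted p = 0.3). The Actb ratio of 3' to middle signal was 1.21 ± 0.021 against 1.54 ± 0.169 (exact permutation p = 0.1), and the 3' to 5' ratio of Pcx was 1.70 ± 0.154 against 2.39 ± 0.769 (exact permutation p = 0.2). The part of RNA quality in the differences between the groups was not tested. The array of IGF1R-dnPI3K replicate 3 stood apart, with a mean correlation of 0.938 to the other 5 arrays, against 0.952 to 0.958 for those 5. IGF1R-dnPI3K replicate 1 lay between the groups for several of the gene lists described here. Signals spread more between the dominant negative samples (median SD of log2 signal 0.255) than between the active ones (0.152). On these 6 arrays the ventricular markers Myl2, Myl3 and Myh6 read 21228 to 32065. The atrial markers Myl7, Sln and Bmp10 stayed at or under 122 there, and Myl4 at or under 366.

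The question put to these 6 arrays is which transcripts differ between hearts with active and with dominant negative PI3K when all carry the IGF1R transgene. Of 7590 probe sets bright enough to test, 18 passed (0.237%), 10 higher (0.132%) and 8 lower (0.105%) with active PI3K. The test was limma's moderated test with Benjamini-Hochberg adjustment over all 7590 at a threshold of 0.05, while an unadjusted p under 0.05 was reached by 936 (12.3%). On 1498 probe sets (19.7%) all 3 samples of a group lay to one side of the other group, 823 of them higher (10.8%) and 675 lower (8.89%). Scaling the arrays to a common median gave 3 higher and 7 lower in place of 10 and 8. The named genes that passed belong to skeletal muscle contraction and calcium storage (Myl1, Casq1), chaperones (Hspa1l, Dnajb4), collagen and its processing (Col1a2, P4ha2), other secreted proteins (Serpinf1, Clu, Tfpi), phosphoinositide metabolism (Inpp5j), acetate and ester metabolism (Acss1, Ces1d) and small GTPase regulation (Tbc1d10a, Arhgap9).

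**Figure D1:**
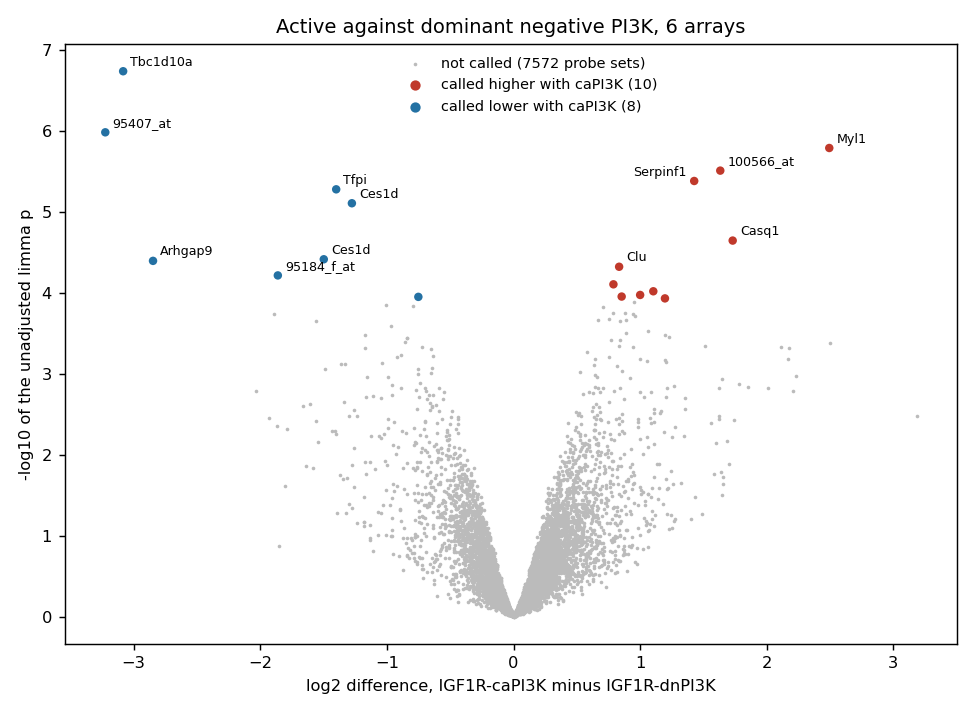
Each point is 1 of 7590 probe sets; the horizontal axis is the log2 difference of IGF1R-caPI3K minus IGF1R-dnPI3K and the vertical axis is -log10 of the unadjusted limma p. The 10 red points were called higher and the 8 blue points lower with active PI3K, with Myl1 at the far right and Tbc1d10a and 95407_at at the far left of those called.

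The number of calls rested on single samples, and on 1 in particular. Without IGF1R-dnPI3K replicate 1 the count was 299 of 7450 (4.01%), 175 higher and 124 lower, and 17 of the 18 calls were among them. The dominant negative samples then left have title numbers that start with 31, and those of the active samples start with 10 or 14. Group and number series thus cannot be told apart in any count without that replicate. Without any other single array the count fell to between 3 and 10. All the alternatives together gave 1 to 299 calls, and a fit of all 9 arrays gave 98 of 7898 (1.24%).

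**Figure D2:**
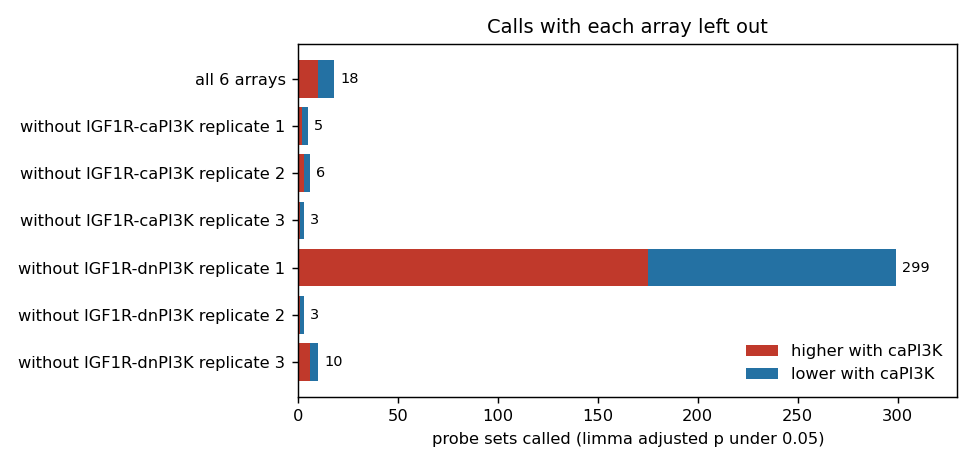
Bars give the number of probe sets called at a limma adjusted p under 0.05 with all 6 arrays and with each array left out in turn, split into higher (red) and lower (blue) with active PI3K. Leaving out IGF1R-dnPI3K replicate 1 gave 299 calls, and each of the other 5 arrays left out gave 3 to 10.

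The largest difference among named genes called higher with active PI3K lay in Myl1, which encodes an alkali light chain of fast skeletal muscle myosin. Its signal, in the units of the deposited intensity, was 10107, 10603 and 11898 with active PI3K and 1346, 2189 and 2419 with dominant negative PI3K. The groups lay far apart, and the lowest active sample was above the highest dominant negative one. The log2 difference was 2.49 ± 0.21 (SE, limma adjusted p = 0.00415), a ratio of 5.63, and the call held in 17 of 18 alternatives. IGF1R mice read 6677 ± 545 (SD, n = 3), between the groups.

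Casq1, the calcium-binding calsequestrin of the skeletal sarcoplasmic reticulum, read 6736, 7298 and 6592 with active PI3K. It read 1751, 1711 and 2954 with dominant negative PI3K, where replicate 3 was the highest but still below every active sample. The log2 difference was 1.73 ± 0.21 (SE, limma adjusted p = 0.0216), and the call held in 10 of 18 alternatives. The only samples whose title numbers start alike across the groups are the replicates numbered 1, and within that pair Myl1 read 10107 against 1346 and Casq1 6736 against 1751.

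These genes lie on chromosome 1, and the 250 bases before their start sites are shown because they are the muscle genes that passed. Capitals mark the E box, CANNTG on either strand, the site that myogenic basic helix-loop-helix factors are known to bind. Both sequences are from RefSeq, build GRCm38.p6, minus strand, written 5′ to 3′ along the gene, for chr1:66945057-66945306 (Myl1) and chr1:172219896-172220145 (Casq1).
Myl1: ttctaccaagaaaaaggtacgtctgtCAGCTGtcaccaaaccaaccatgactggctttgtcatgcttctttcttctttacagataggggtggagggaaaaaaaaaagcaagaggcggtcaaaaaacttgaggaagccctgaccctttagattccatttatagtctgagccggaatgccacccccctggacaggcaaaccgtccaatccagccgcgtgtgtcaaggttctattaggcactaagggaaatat
Casq1: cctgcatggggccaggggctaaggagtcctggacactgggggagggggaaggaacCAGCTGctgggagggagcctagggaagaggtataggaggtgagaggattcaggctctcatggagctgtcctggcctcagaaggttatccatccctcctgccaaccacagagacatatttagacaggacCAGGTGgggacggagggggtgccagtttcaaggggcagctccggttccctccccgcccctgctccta
The Myl1 window holds 1 E box and the Casq1 window 2. Such a match is common: 66.2% of 32851 promoters of this length hold an E box, as do 50 of the 82 genes named here that have a RefSeq promoter. A named gene was counted if any of its promoters held an E box, while the percentage is of single promoters.

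The other genes of the skeletal muscle list went in both directions. Of 24 genes on a list of skeletal isoforms, 16 were bright enough to test, with 9 positive and 7 negative differences. Their median log2 difference was 0.04, against 0.042 over all 5740 genes read from 1 probe set each, and the upper quartile 0.724, against 0.235. Of these 16, 2 were called higher, Myl1 and Casq1, and 0 lower (limma), against 6 (0.105%) and 4 (0.0697%) of the 5740 genes. In all, 5 of the 16 lay entirely higher and 2 entirely lower, against 11% and 9.08% of all genes. With all 9 arrays in the fit 4 of the 16 were called higher, against 58 of all 7898 probe sets tested there. Without dominant negative replicate 3 it was 3 of the list, against 6 of all 7438 probe sets. Acta1, skeletal alpha-actin, which fetal and overloaded hearts also express, read 20211, 20158 and 18216 with active and 8299, 7753 and 14374 with dominant negative PI3K. The groups did not overlap, but dominant negative replicate 3 lay nearer to the active samples than its group did, and the difference of 1.00 ± 0.22 (SE) did not pass (limma adjusted p = 0.121). Ryr1, the calcium release channel of skeletal muscle, read 145, 158 and 189 against 51.5, 68.6 and 72.8, near the background, and did not pass (1.36 ± 0.31, limma adjusted p = 0.129). Among 9 markers that define skeletal muscle fibres, Tnni2, Tnnt3, Myh1 and Myh2 were at or under 59.3 on all 6 arrays and were not tested. The other 5 were tested, and 0 passed (limma). Of these 5, Tnnc2 lay entirely higher (157, 158 and 160 against 109, 82.7 and 153), against 11% of all genes. Mylpf, Myh4, Pvalb and Actn3 overlapped. Pvalb was the brightest, at 1093 to 1755. The summed signal of the 9 was 2051 to 2357 with active and 1908 to 2491 with dominant negative PI3K, so the ranges overlapped.

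**Figure D3:**
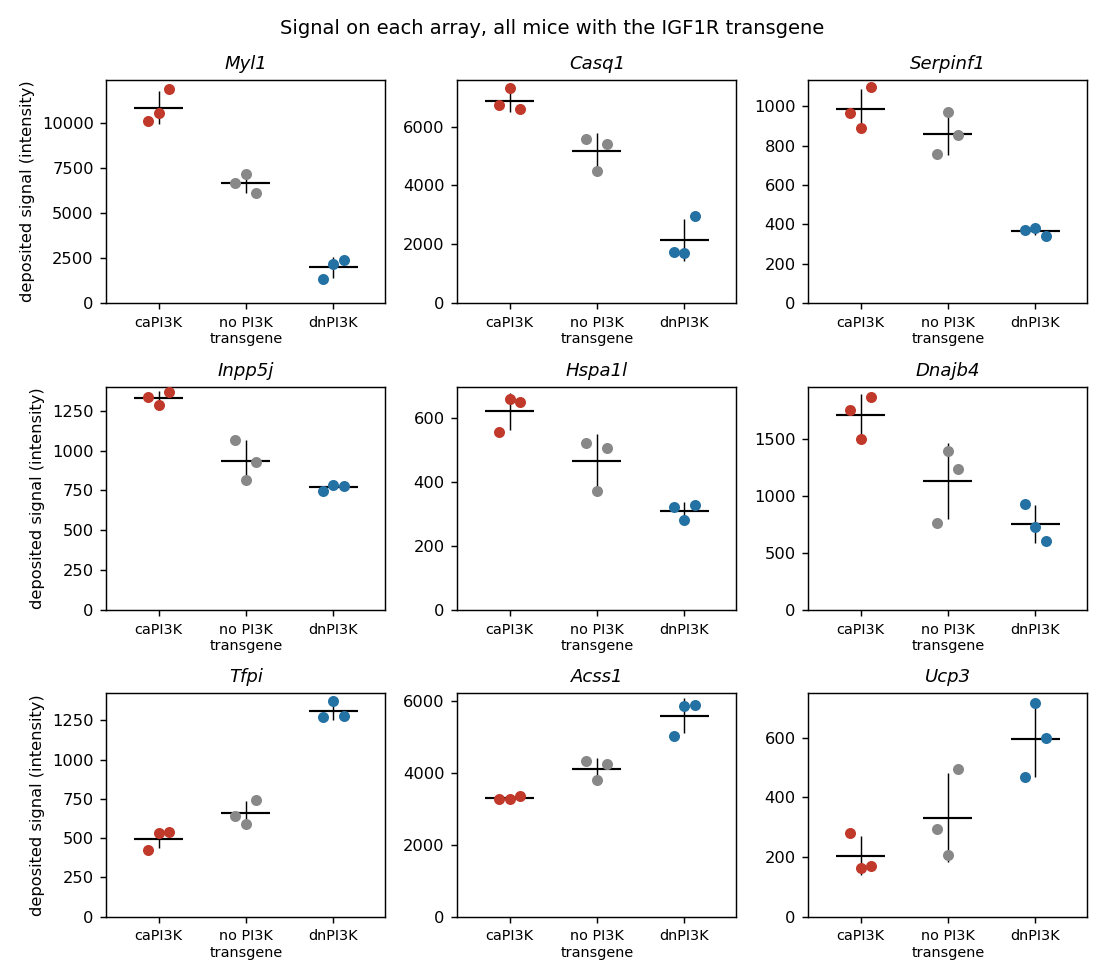
Points give the deposited signal on each array for 9 genes, with the mean (horizontal line) and SD (vertical line) of the 3 samples in a group; IGF1R mice without a PI3K transgene are in grey between active (red) and dominant negative (blue) PI3K. Ucp3 did not pass (limma adjusted p = 0.0536), the other 8 genes passed, and in all 9 the red and blue points do not overlap.

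Secreted proteins were among the steadiest calls. Serpinf1, which encodes the secreted pigment epithelium-derived factor, read 964, 891 and 1097 with active and 373, 380 and 342 with dominant negative PI3K. Each active sample lay above each dominant negative one, a log2 difference of 1.43 ± 0.14 (SE, limma adjusted p = 0.00636). The IGF1R level of 861 ± 107 (SD, n = 3) was close to that of the active samples. On a second probe set of the gene the difference was 0.052, so the call rests on 1 probe set.

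Tfpi, the tissue factor pathway inhibitor that restrains the start of blood clotting, went the other way. It read 425, 532 and 537 with active and 1274, 1375 and 1277 with dominant negative PI3K, with no overlap and little spread within groups. The log2 difference was -1.40 ± 0.14 (SE, limma adjusted p = 0.00671), and the IGF1R samples, at 658 ± 75.9 (SD, n = 3), lay nearer to the active ones. Serpinf1 and Tfpi each kept the call in 14 of 18 alternatives. Clu, the secreted chaperone clusterin, was higher on 1 probe set (1483, 1548 and 1532 against 826, 850 and 885; 0.83 ± 0.11, limma adjusted p = 0.0331). On the other probe set of Clu the difference was 0.552, which missed the threshold. The Clu call held in 10 of the 17 alternatives that tested its probe set.

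Inpp5j encodes a phosphatase of phosphoinositides, the lipids on which PI3K acts. Its signal was 1336, 1285 and 1368 with active and 749, 782 and 777 with dominant negative PI3K. The difference was 0.79 ± 0.11 (SE, limma adjusted p = 0.0462), and the IGF1R samples lay between, at 938 ± 126 (SD, n = 3). The call held in 9 of 18 alternatives.

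In metabolism, Acss1, the mitochondrial enzyme that makes acetyl-CoA from acetate, was lower with active PI3K. It read 3273, 3282 and 3359 against 5017, 5845 and 5877, a difference of -0.75 ± 0.11 (SE, limma adjusted p = 0.0499). The active samples lay close together, below all dominant negative ones. Ces1d, a carboxylesterase that hydrolyses lipid esters, was lower on both of its probe sets, by -1.28 ± 0.13 (adjusted p = 0.00856) and -1.50 ± 0.19 (limma adjusted p = 0.0308). The names of these probe sets mark possible shared targets among related genes, which could not be checked.

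The calls of largest size were on probe sets of doubtful target. One probe set of Tbc1d10a, which encodes a GTPase-activating protein for Rab proteins, read 1388, 1796 and 1132 with active and 13086, 9621 and 13663 with dominant negative PI3K (-3.08 ± 0.20, limma adjusted p = 0.0014). On another probe set of Tbc1d10a the difference was 0.188, so the direction for the gene is not settled. Arhgap9 passed on a dim probe set that read at most 17.0 in the active samples and 180 to 323 in the dominant negative ones. All 3 active values lay under the floor of 31.7 used here, so the size of that difference is open, and the gene's brightest probe set differed by -0.637 without passing. The probe sets 95407_at (-3.23 ± 0.26), 95184_f_at (-1.86 ± 0.25) and 100566_at (1.63 ± 0.15) also passed, and none of them has a single gene in the annotation.

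Collagen and matrix genes lay higher with active PI3K as a group, without passing one by one on their brightest probe sets. Of 52 listed genes of fibrillar collagens, matrix and fibroblasts, 41 were tested, with a median log2 difference of 0.48 against 0.042 over all genes. Of these 41, 0 passed (limma), 16 lay entirely higher and 1 entirely lower, against 11% and 9.08% of all genes. The list's 36 positive and 5 negative differences are a description, since a gene could pass the brightness filter through 1 group alone.

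The dominant negative samples differed among themselves. Col1a1, a chain of type I collagen, read 4825, 4538 and 3557 with active and 2435, 738 and 1062 with dominant negative PI3K. Replicate 1 of the dominant negative group lay between its group and the active samples, and the difference of 1.78 ± 0.38 (SE) did not pass (limma adjusted p = 0.119). Postn, the matrix protein periostin of activated fibroblasts, showed the same order: 4113, 3422 and 3056 against 1988, 601 and 552 (2.01 ± 0.43, limma adjusted p = 0.119). Col3a1, a fibrillar collagen, overlapped between the groups because dominant negative replicate 1 read 1845, above the lowest active sample at 1728, while replicates 2 and 3 read 514 and 314.

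Without dominant negative replicate 1, 14 of the 41 matrix genes were higher and 0 lower, against 2.39% and 1.77% of 5658 genes. The dominant negative samples left there share a number series that no active sample has. Without dominant negative replicate 3 the counts were 0 and 0 (limma), but only 10 of all 7438 probe sets tested there were called, 6 higher and 4 lower. The 14 include Col1a1, Col3a1, Col5a2, Postn, Sparc and P4ha1. Col1a2, the partner chain of Col1a1 in type I collagen, passed on all 6 arrays through a dimmer probe set (2306, 2113 and 1776 against 1119, 812 and 959; 1.10 ± 0.16, limma adjusted p = 0.0499). Its brightest probe set differed by 0.025. P4ha2, a subunit of the prolyl hydroxylase that stabilises the collagen helix, passed on 1 probe set at 0.85 ± 0.13 (limma adjusted p = 0.0499), and its other probe set differed by 0.756. P4ha1, the related subunit, differed by 1.19 ± 0.21 and did not pass (limma adjusted p = 0.0689).

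The 5 negative differences were those of Timp3, an inhibitor of matrix proteases (-0.95 ± 0.27, limma adjusted p = 0.22), Thbs2 (-0.96 ± 0.49, limma adjusted p = 0.457), Fbln1, Ogn and Eln, and Timp3 was the 1 gene entirely lower. Dcn, Pdgfra and Tcf21, markers of resting fibroblasts, overlapped between the groups, with differences of 0.133, 0.134 and 0.015. The summed signal of 6 fibroblast markers was 24364 to 27285 with active and 18846 to 19645 with dominant negative PI3K, and Col1a1 and Lum were the 2 of 6 whose groups did not overlap. In tissue RNA, fewer cells of a type and less RNA per cell cannot be told apart.

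Macrophage and myeloid genes also lay higher with active PI3K. Of 29 listed, 13 were tested, with a median difference of 0.568, 6 entirely higher and 0 lower against 11% and 9.08% of all genes, and 0 passed (limma). C1qa, a subunit of the first complement component, read 2481, 2475 and 2344 against 1987, 1291 and 1349, and did not pass (0.69 ± 0.17, limma adjusted p = 0.165). Lyz2, the lysozyme of macrophages, read 1257, 1044 and 1323 against 941, 626 and 497 (0.86 ± 0.23, limma adjusted p = 0.189). Dominant negative replicate 1 again lay highest of its group in both. The summed signal of 6 macrophage markers was 5907 to 6150 with active and 3237 to 4872 with dominant negative PI3K, and 5 of the 6 did not overlap. Without dominant negative replicate 1, 6 of the 13 were higher and 0 lower, against 2.39% and 1.77% of all genes (limma). Without replicate 3, 0 of the 13 were called either way, but only 10 of all 7438 probe sets tested there were called (limma).

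**Figure D4:**
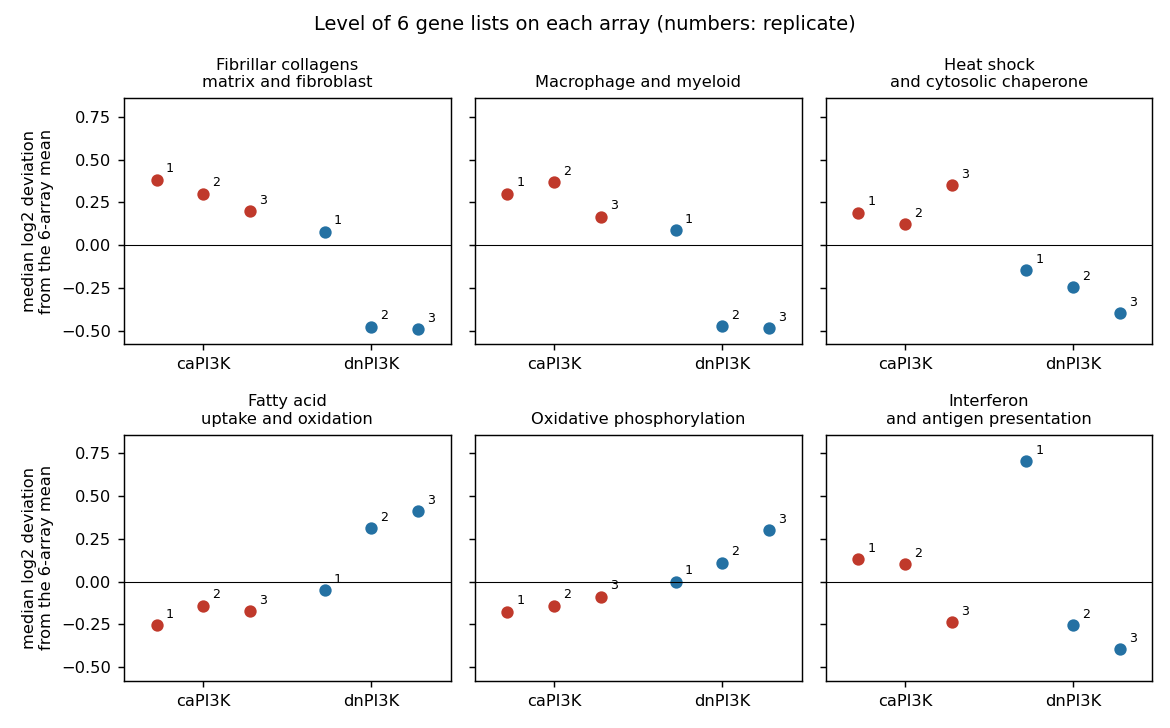
Each point is the median, over the tested genes of 1 list, of a gene's log2 signal on that array minus its mean over the 6 arrays; numbers are replicates, red is active and blue dominant negative PI3K. For matrix genes dominant negative replicate 1 sits at 0.078 and replicates 2 and 3 at -0.477 and -0.491, and in the interferon list replicate 1 alone is high, at 0.706.

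Cytosolic chaperones lay higher with active PI3K, with 20 positive and 2 negative differences, though 10 of the 22 overlapped between the groups. Of 22 tested heat shock and cytosolic chaperone genes, 12 lay entirely higher and 0 entirely lower, against 11% and 9.08% of all genes, with a median difference of 0.473. Of the 22, 1 passed: Dnajb4, a cochaperone of the Hsp40 family, which read 1747, 1501 and 1866 against 931, 726 and 602 (1.196 ± 0.18, limma adjusted p = 0.0499). Hspa1l, a member of the Hsp70 family, passed as well and is not on that list (555, 659 and 648 against 323, 280 and 328; 1.00 ± 0.15, limma adjusted p = 0.0499). Each of these calls held in 8 of 18 alternatives.

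The inducible Hsp70 genes showed the largest differences of the list, but 1 active sample stood above the others. Hspa1a read 703, 624 and 2146 with active and 214, 125 and 194 with dominant negative PI3K (2.50 ± 0.44, limma adjusted p = 0.0717). Hspa1b read 695, 561 and 1672 against 307, 177 and 115 (2.23 ± 0.46, limma adjusted p = 0.104). Replicate 3 of the active group was the highest in both, and also in Hsph1, a partner of Hsp70 (1759, 1513 and 2419 against 1093, 714 and 689; limma adjusted p = 0.0855). These genes share sequence, so Hspa1a and Hspa1b may not be measured separately. The constitutive Hspd1 and Hspe1 of mitochondria differed by 0.02 and 0.08. The chaperones of the endoplasmic reticulum had a median of 0.187, with 3 of 22 entirely higher, near the 11% of all genes, and 0 lower, and Hsp90b1 and P4hb at -0.001 and 0.04.

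Genes of fatty acid use lay lower with active PI3K. Of 29 tested genes of fatty acid uptake and oxidation, 28 had a negative difference, 11 lay entirely lower and 0 entirely higher, against 9.08% and 11% of all genes, with a median of -0.344. None of the 29 passed on 6 arrays (limma). Ucp3, a mitochondrial carrier that rises with fatty acid supply, read 281, 163 and 171 with active and 467, 717 and 600 with dominant negative PI3K, and came nearest (-1.56 ± 0.25, limma adjusted p = 0.0536). Cpt1a, which links fatty acids to carnitine for entry into mitochondria, read 685, 710 and 520 against 929, 1358 and 1483 (-0.96 ± 0.21, limma adjusted p = 0.119). Acot1, a thioesterase known as a target of PPAR alpha, read 263, 272 and 241 against 390, 1227 and 1134.

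For Acot1 dominant negative replicate 1 thus lay near the active samples, and the difference of -1.66 ± 0.39 did not pass (limma adjusted p = 0.147). Without that replicate 12 of the 29 genes were lower and 0 higher, against 1.77% and 2.39% of all genes (limma). With dominant negative replicate 3 left out instead, the counts were 0 and 0, but only 10 of all 7438 probe sets tested there were called (limma). Echs1, the enoyl-CoA hydratase of beta oxidation, differed by -0.74 ± 0.16 (limma adjusted p = 0.119), and Acadm, which starts the oxidation of medium chains, by -0.03. The IGF1R samples lay between: the median difference of the list was -0.181 for active minus IGF1R and 0.278 for dominant negative minus IGF1R, while over all genes it was -0.017 and -0.07.

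The genes of the respiratory chain and ATP synthase lay lower by a small amount and in large number. Of 62 tested, 39 lay entirely lower and 1 entirely higher, against 9.08% and 11% of all genes, with a median of -0.276, and 0 passed (limma). The median was -0.11 after quantile normalization, which moved that of all genes from 0.042 to 0.003. Ndufa5, a subunit of complex I, read 11866, 12754 and 13084 against 16187, 16890 and 20260 (-0.49 ± 0.12, limma adjusted p = 0.165). Cox8b, a subunit of cytochrome c oxidase in heart, differed by -0.52 ± 0.15. Dominant negative replicate 3, the array that stood apart, was the highest sample in both.

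Its Gapdh middle-region signal was 51160 against 28460 to 29540 on the other 5 arrays, and other abundant transcripts ran with it. Ribosomal protein genes had a median of -0.214 (12 of 26 entirely lower, 1 entirely higher, against 9.08% and 11% of all genes), which became -0.058 after quantile normalization, and citric acid cycle genes had -0.16 (8 of 19 entirely lower), which became -0.044. Idh2, the mitochondrial isocitrate dehydrogenase, read 9249, 10407 and 10463 against 14016, 16245 and 21912 (-0.77 ± 0.17, limma adjusted p = 0.121). Sarcomere genes had a median of -0.113, which turned to 0.008. The part of replicate 3 in these small shifts was not tested further. Without it the medians were -0.182 for the respiratory chain, -0.356 for fatty acid use and -0.148 for ribosomal proteins, with 0.006 over all genes.

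Among genes of the pathway itself no call was made. Of 50 listed genes of IGF, insulin and PI3K signalling, 34 were tested, 0 passed, 4 lay entirely higher and 6 entirely lower, against 11% and 9.08% of all genes, with a median of -0.075. Igf1r read 1199, 1282 and 933 with active and 1977, 1660 and 1680 with dominant negative PI3K. These ranges did not overlap, and the difference of -0.65 ± 0.15 (SE) did not pass (limma adjusted p = 0.148). The sources used here do not say whether the probe set matches the transgene. Pik3ca, which encodes p110 alpha, overlapped fully (614, 466 and 433 against 499, 576 and 359), and another probe set of the gene differed by 0.396. Both groups carry a p110 transgene, so this overlap cannot say whether the probe set detects the transgenes, and it does not check the labels. The IGF1R samples read 398, 435 and 419.

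Of the kinases and adaptors downstream, Akt1 differed by -0.27 ± 0.14 (limma adjusted p = 0.475), and Irs2, an adaptor of the insulin receptor, by -0.33 ± 0.23 (limma adjusted p = 0.57). Igfbp4, which binds IGF in the extracellular space, differed by 0.57 ± 0.17 (limma adjusted p = 0.231). Pik3r1, the regulatory subunit, differed by -0.01 ± 0.31, with 250, 198 and 206 against 132, 267 and 295.

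FoxO factors and genes known as their targets had a median of -0.282 over 20 tested genes, with 7 entirely lower and 1 entirely higher, against 9.08% and 11% of all genes, and 0 called (limma). Dominant negative replicate 2 set the list apart most: its median deviation was 0.454, against -0.03 and 0.047 in replicates 1 and 3 and -0.16 to -0.067 in the active samples. Bcl2l11, the BH3-only cell death gene Bim, read 396, 396 and 428 with active and 618, 953 and 779 with dominant negative PI3K. The groups did not overlap, but the difference of -0.92 ± 0.17 (SE) did not pass (limma adjusted p = 0.0836), and another probe set of the gene differed by 0.519. Txnip, which blocks thioredoxin and glucose uptake, read 3355, 2744 and 3651 against 4164, 8002 and 7173 (-0.94 ± 0.24, limma adjusted p = 0.169), with another probe set at 0.175. Its replicate 1 with dominant negative PI3K lay close to the active samples. Foxo3 overlapped between the groups, since dominant negative replicate 1 read 1059, and differed by -0.57 ± 0.28 (limma adjusted p = 0.436). Bcl6, a repressor, was the 1 gene of the list entirely higher (0.67 ± 0.19, limma adjusted p = 0.214). Without dominant negative replicate 1, 3 genes of the list were lower and 1 was higher, against 1.77% and 2.39% of all genes (limma). Without replicate 3, 0 of the list were called, but only 10 of all 7438 probe sets tested there were called (limma).

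The Bcl2l11 promoter is shown because this target had the lowest p of the list and holds the core letters GTAAACA of a FoxO site. It is RefSeq sequence of build GRCm38.p6, plus strand, chr2:128125788-128126037, with the match in capitals.
Bcl2l11: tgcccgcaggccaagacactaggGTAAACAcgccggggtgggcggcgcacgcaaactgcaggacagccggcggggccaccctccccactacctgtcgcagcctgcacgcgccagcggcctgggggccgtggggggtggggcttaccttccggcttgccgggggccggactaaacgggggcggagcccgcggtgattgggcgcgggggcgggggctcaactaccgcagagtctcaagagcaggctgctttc
The match begins at position -227 from the start site. The gene's other promoter holds no such match. Within the same window the core was found, on either strand, in 4 of 82 named genes (Bcl2l11, Txnip, Lipe and Akt1) and in 3.17% of 32851 promoters. The letters CAAAACA, an insulin response sequence, were found in 4 of the 82 (Clock, Irs2, Lyz2 and Cpt1a) and in 5.56% of promoters. A named gene was counted if any of its promoters matched, while the percentages are of single promoters, so the counts are not like for like.

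Most genes of the fetal and stress list lay somewhat higher with active PI3K, and 0 of 16 tested passed (limma). Of the 16, 14 differences were positive and 2 negative, 6 lay entirely higher and 0 entirely lower, against 11% and 9.08% of all genes, and the median was 0.252. Nppa, the atrial natriuretic peptide, read 4096, 3416 and 4237 with active and 5955, 4028 and 6307 with dominant negative PI3K, and its groups overlapped (-0.45 ± 0.18, limma adjusted p = 0.374). Nppb, the B-type natriuretic peptide, read 17698, 15942 and 18802 against 17234, 9273 and 11493 and overlapped as well (0.51 ± 0.21, limma adjusted p = 0.386). Myh7, the slow myosin heavy chain, ran from 12904 to 34746 in the dominant negative samples alone, a range that holds all 3 active values. The name of its probe set marks possible shared targets among related genes, which could not be checked. Rcan1, a target of calcineurin, differed by 1.35 ± 0.37 (limma adjusted p = 0.197).

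Among cardiac contraction and calcium genes most differences were small. Of 18 tested sarcomere genes 0 passed (limma), 4 lay entirely lower and 0 entirely higher, against 9.08% and 11% of all genes. The largest differences of that list were 0.792 for Tcap, whose groups overlapped, and -0.78 ± 0.22 for Myom2 (SE, limma adjusted p = 0.219). Myom2 read 1562, 2320 and 2227 with active and 2549, 4325 and 3736 with dominant negative PI3K. Atp2a2, the calcium pump of the sarcoplasmic reticulum, read 12903, 12424 and 13308 against 13755, 13945 and 13735, a difference of -0.10 ± 0.10 (limma adjusted p = 0.683) that turned to 0.10 after quantile normalization. Its groups did not overlap. Myh6, the fast myosin heavy chain of the mouse ventricle, differed by -0.35 ± 0.13 (limma adjusted p = 0.323) and Myl2 by -0.17 ± 0.14, which also turned to 0.10 after quantile normalization. Of 15 tested calcium handling genes, 1 lay entirely higher (Camk2d, 0.59 ± 0.17, limma adjusted p = 0.206) and 2 entirely lower, near the 11% and 9.08% of all genes, with a median of -0.027. Of 15 ion channel genes, 5 lay entirely lower, against 9.08% of all genes, and 0 higher, among them the potassium channel Kcnk3 (-0.63 ± 0.18, limma adjusted p = 0.222).

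Adhesion and growth genes gave single large differences. Itga5, the fibronectin receptor subunit, read 227, 280 and 211 with active and 85.3, 105 and 65.1 with dominant negative PI3K (1.51 ± 0.27, limma adjusted p = 0.0717). The IGF1R samples, at 341 ± 98.7 (SD, n = 3), were on average above both groups. Hbegf, a ligand of the epidermal growth factor receptor, read 656, 742 and 649 against 430, 351 and 329 (0.89 ± 0.15, limma adjusted p = 0.0686). Enah, which extends actin filaments, differed by 0.71 ± 0.11, and Ntn1, the guidance protein netrin 1, by -0.79 ± 0.12 (limma adjusted p = 0.0526 for both). Psme1, a subunit of the proteasome activator, differed by -0.66 ± 0.12 (limma adjusted p = 0.0717), while the proteasome list had a median of 0.018. Of 25 cell cycle genes, 4 lay entirely higher and 1 entirely lower, against 11% and 9.08% of all genes, with Mcm2, a subunit of the replicative helicase, at 0.98 ± 0.26 (limma adjusted p = 0.183).

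Markers of other cells were uneven. Cd34, found on endothelial and stromal cells, read 1313, 1372 and 1420 against 965, 648 and 746 (0.82 ± 0.16, limma adjusted p = 0.0894). It was the 1 gene of 18 on the endothelial list that lay entirely higher, against 11% of all genes. Vegfb, Sox17, Cdh5 and Tek, 4 of the 18, lay entirely lower, by -0.41 to -0.15, against 9.08% of all genes. Of the 18 differences, 11 were negative. The 7 endothelial markers summed to 7878 to 9209 with active and 8262 to 10577 with dominant negative PI3K, ranges that overlap. Acta2, the actin of smooth muscle, read 739, 757 and 685 against 2147, 1275 and 941 (-0.92 ± 0.27, limma adjusted p = 0.224). The smooth muscle markers Myh11 and Tagln overlapped between the groups, with differences of -0.39 and 0.023, and Cnn1 was not bright enough to test. Of 12 tested smooth muscle and pericyte genes, 5 differences were positive and 7 negative. Among these 12, 4 lay entirely lower and 0 entirely higher, against 9.08% and 11% of all genes. Cd79a, a part of the B cell receptor, read 76.9 to 82.8 with active and 162 to 248 with dominant negative PI3K (-1.37 ± 0.27, limma adjusted p = 0.0876), and Cd3d, Cd3e and Cd3g were at or under 45.5 on all 6 arrays. Other B cell genes went the other way: Ighm, an antibody heavy chain, lay entirely higher (0.34 ± 0.14, limma adjusted p = 0.38), and Cd79b, not bright enough to test, had medians of 104 with active and 67.7 with dominant negative PI3K. The adipocyte markers Adipoq and Retn summed to 57.7 to 86.1 with active and 94.9 to 233 with dominant negative PI3K. Neither was bright enough to test, and Retn read only 10.2 to 23.3 over the 6 arrays. Lipe and Car3, which fat cells express strongly, differed by -1.02 ± 0.28 (limma adjusted p = 0.194) and -1.56 ± 0.40 (limma adjusted p = 0.169). Car3 was dim, at 33.1 to 171 over the 6 arrays. Lipe and Car3 were the 2 of 10 tested adipocyte genes that lay entirely lower, against 9.08% of all genes, and 0 lay entirely higher. Of the 10 differences, 8 were negative and 2 positive. Fabp4, Pparg and Cebpa overlapped between the groups, with differences of -0.143, 0.042 and 0.147. The part of other cells in the differences of matrix, myeloid and fatty acid genes was not tested.

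Interferon and antigen presentation genes set 1 sample apart rather than the groups. Their median deviation was 0.706 in dominant negative replicate 1, against -0.253 and -0.394 in replicates 2 and 3 and -0.237 to 0.130 in the active samples. The median difference of the 18 tested genes was -0.065. Of these 18, 0 lay entirely higher and 2 entirely lower, against 11% and 9.08% of all genes. Without dominant negative replicate 1 the median difference was 0.303.

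**Figure D5:**
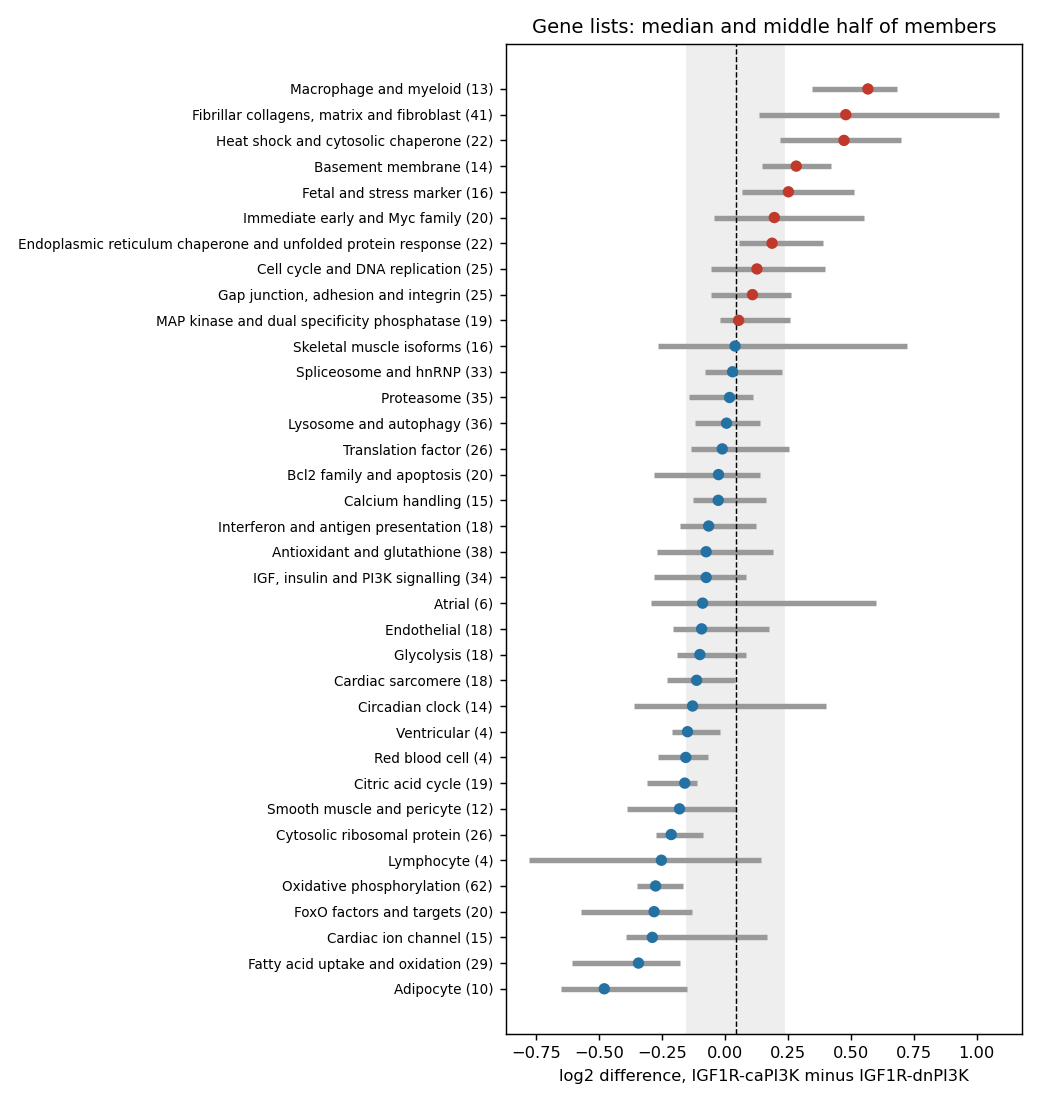
Each row is 1 of 36 gene lists with its number of tested genes; the point is the median log2 difference of IGF1R-caPI3K minus IGF1R-dnPI3K and the grey bar the interquartile range of the members. The dashed line and pale band mark the median (0.042) and interquartile range (-0.15 to 0.235) of all 5740 genes; points are red where the median is above that line, with macrophage (0.568), matrix (0.48) and heat shock (0.473) genes highest and adipocyte (-0.48) and fatty acid (-0.344) genes lowest.

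Set beside the IGF1R samples, most of the called probe sets lay between the groups. Of the 18, the mean of the 3 IGF1R arrays lay between the 2 group means and nearer to active PI3K for 13, between and nearer to dominant negative PI3K for 3, and below both for 2. The 2 below both were the probe sets of Tbc1d10a (911 ± 293, SD, n = 3, on the IGF1R arrays) and 95184_f_at (151 ± 4.41). Arhgap9, counted among the 13, had active and IGF1R values all under the floor, so those 2 groups tied. Among the 1498 probe sets whose groups did not overlap, 420 and 266 lay between, with 415 above both and 397 below both. Over all 7590 tested, 14.7% lay between and nearer to active PI3K, and 10.8% between and nearer to dominant negative PI3K. Calls were picked for a gap between the groups, which by itself makes a place between them more frequent. The matrix list had medians of 0.123 for active minus IGF1R and -0.508 for dominant negative minus IGF1R, and the heat shock list 0.145 and -0.304. The IGF1R arrays had lower CreX ratios, 1.05 to 1.26, than all 6 other arrays, so group and array processing cannot be told apart in values set against them.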

How the data were processed

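Total RNA was hybridised to Affymetrix arrays, 1 per sample. The authors deposited 1 linear intensity per probe set and array. The values show a common 2% trimmed mean of 500.3 to 500.4 on every array, so the authors had scaled them; the sources used here give neither the algorithm nor detection calls. Replicate numbers follow deposit order. The number of arrays limits the precision. Identical values were shared by 14 to 37 probe sets within pairs of arrays, so no sample was counted as a repeat.

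Groups came from the sample titles. Control probe sets were left out. Values of the 6 arrays under 31.7, which is their 20th percentile among positive values, were set to it before log2 was taken. A probe set was tested (7590 were) if 3 or more arrays held it above their own 40th percentile. A linear model was fitted with limma 3.58.1 in R 4.3.3, with moderated variances that follow the mean and no covariate, and adjusted by Benjamini-Hochberg. Differences are log2 ± SE, signals mean ± SD of deposited values. Control ratios were compared by exact permutation, adjusted over 6 ratios.

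Symbols came from the platform annotation: 10833 probe sets had 1 symbol, 396 several and 1193 none; 10817 matched the RefSeq gene table and 0 symbols changed. A gene was read from its brightest probe set on the 6 arrays. Of 106 named genes, 82 had a RefSeq promoter (GRCm38.p6). The 36 lists, their members, the comparison and the naming rule were chosen with earlier results of these data known. The rule named up to 14 genes per direction among calls with a plain probe set name and a signal of at least 200 (the 5 of lowest p if fewer than 5 passed), up to 5 called genes per list or else the 2 of lowest p, a fixed set of pathway and stress genes, and genes called on a dimmer probe set with both values. The text leaves some of these out. Hspa1a, Hspa1b, Hsph1, Hsp90aa1, Col3a1, Col5a2, Cpt1a, Acot1, Ntn1, Enah, Hbegf, Ryr1, Lyz2, Bcl6 and list members given only by their difference were named after their values were seen.

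On data simulated from these 6 arrays, with 200 of 7590 probe sets changed, the test recovered 6.93% of log2 changes of 0.5, 43.9% of 1 and 82.8% of 2, and 4.93% of its calls were false. Noise was drawn independently for each probe set, with the same SD in both groups. The real dominant negative and active groups spread unequally (median SD of log2 signal 0.255 and 0.152), so these shares may differ on the real arrays. The 18 alternatives are other scalings, floors, filters and variance models, array weights, all 9 arrays, the number series in the titles as a block, plain probe set names only, and each array left out.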

Additional observations from a re-analysis of the deposited data

How the results depend on the processing

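With all 6 arrays 18 probe sets passed. Quantile normalization gave 39, a common median 10, a floor at the 40th percentile 34, no filter on low signal 8 and a stricter filter 31. Array weights gave 261 (149 higher, 112 lower), all 9 arrays in the fit 98 (58 and 40), and plain probe set names only 6. Leaving out 1 array gave 3 to 299, where the highest count came without IGF1R-dnPI3K replicate 1. An offset in place of the floor (18), no variance trend (12) and robust variances (19) stayed within 1.5 times. Of the 18 calls, all 18 passed after quantile normalization, with array weights and with robust variances, 17 with all 9 arrays and 17 without IGF1R-dnPI3K replicate 1. Of the same 18, 10 passed with a common median, 8 without the variance trend, 5 with no filter, and 3 to 9 without any other single array. The cause of these changes was not tested.

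No paired analysis was possible because replicate numbers follow deposit order and pair nothing. The number series in the titles, taken as a block, leaves replicate 1 of each group to carry the comparison; 1 probe set then passed, Myl1.

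No named gene that passed changed direction under any alternative. Among genes that had not passed, Foxo3 turned to 0.282 in the fit with the number series, Pik3r1 to 0.926 and Myl2 to 0.003. After quantile normalization Myl2 was 0.10 and Atp2a2 0.10. Pik3ca was -0.102 with array weights. With 1 array left out in turn, Pik3ca ran from -0.105 to 0.237, Pik3r1 from -0.371 to 0.212 and Myh7 from -0.092 to 0.623.

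The medians of 36 lists were less steady. With the number series as a block 17 moved by more than the spread between samples and 7 changed sign, among those that moved macrophage (0.568 to 0.214), heat shock (0.473 to 0.324) and FoxO genes (-0.282 to -0.01). Signs changed in 6 lists after quantile normalization and in 6 without IGF1R-dnPI3K replicate 2, and in 0 to 5 under each of the others. The cause was not tested.

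With 3 samples a group, most simulated log2 differences of 0.5 and of 1 were not detected (recovery of 6.93% and 43.9%). The simulated noise was simpler than that of the real arrays.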
